A study of Arabidopsis thaliana with 20 samples.

Results

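The small RNAs of wild-type flower buds of *Arabidopsis thaliana* are described here from the 3 libraries of the accession Col-0 among the 20 libraries of the series. The study compared Col-0 with mutants of the cytoplasmic RNA exosome subunit *CER7* and of its associated proteins RST1 and RIPR, and asked which loci give rise to small RNAs when these are lost. The members were all libraries whose label gives Col-0 as the genotype, and genes were ranked by their mean CPM (the usual scaling of a count to its library total) over these 3 libraries. Counts are reads of 21 and 22 nt on 27415 gene identifiers of TAIR10. The deposited counts are labelled as counts on mRNAs, and small RNA loci that overlap none of these identifiers are not counted. Each share and rank below is thus among the counts on these genes and not among all small RNAs of the buds.

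The wild-type plants were Col-0 with no further allele or agent given in the labels. Col-0 is an accession in which the 3′-5′ exoribonuclease SOV is not fully functional, and the mutants share this background. The comparison libraries were 3 of cer7-gabi and 2 of cer7-sail (insertion lines in *CER7*), 3 each of rst1-2 and rst1-3 (insertion lines in *RST1*), and 3 each of riprT and riprC (lines with 1 base inserted in *RIPR* by genome editing). All plants were grown for 3 weeks with 12 h of light and then for 3 weeks with 16 h. By the labels, closed flower buds of 4 plants were pooled for a replicate, and the replicates of a genotype came from different dates and chambers. The label flower buds could not be checked against marker mRNAs because only small RNAs were measured, and in such pooled tissue fewer cells of a type and less RNA per cell cannot be told apart.

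Small RNAs of this length in plants come from several routes. MicroRNAs (miRNAs) are cut by DICER-LIKE 1 from folded transcripts and guide ARGONAUTE proteins to complementary mRNAs. Small interfering RNAs (siRNAs) are cut from double-stranded RNA, which forms from inverted repeats or is made by RNA-dependent RNA polymerases on a cleaved transcript, as in the trans-acting siRNA (tasiRNA) pathway.

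Mature miRNAs that lie inside leading genes of the table are shown first, because genes that overlap a miRNA gene held a large share of the wild-type counts. miR472-3p is shown for the highest disease resistance gene, which is not among the 100 highest genes. Their mature sequences were read from the TAIR10.1 assembly at the RefSeq positions, 5′ to 3′, and the seed (bases 2 to 8) is in capitals.
miR780.1: uCUAGCAGcuguugagcaggu
miR780.2: uUCUUCGUgaauaucuggcau
miR398b-3p: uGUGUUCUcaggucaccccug
miR398b-5p: aGGGUUGAuaugagaacacac
miR408-3p: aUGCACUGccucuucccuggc
miR162a-3p: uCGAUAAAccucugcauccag
miR5652: uUGAAUGUgaaugaaucgggc
miR472-3p: uUUUUCCUacuccgcccauacc
No pair of these shares a seed, but miR398c-3p and miR398c-5p, from a neighbouring gene, have the same sequences as the miR398b forms.

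The counts were concentrated on few genes. The 3 wild-type libraries held 203245, 230727 and 227446 counts, and 12114, 12450 and 12848 genes had at least 1 count. In total 8843 genes had no count in any of the 3 libraries and 6792 had a count in each. The median gene had a mean of 2.89 CPM, which is below the limit that a count of 0 allows in a single library (3 counts, or 13.0 to 14.8 CPM). By contrast, 129 genes had a mean of at least 1000 CPM and 811 had at least 100 CPM. Ranked within a library, the highest gene held 16.1% ± 1.59 of the counts (SD, n = 3), the 10 highest held 34.3% ± 0.438 and the 100 highest held 62.7% ± 1.23. Between 39 and 45 genes were sufficient to reach 50% of the counts of a library, and 90% was reached with 1701 to 2114 genes. These differences between libraries are larger than the counting error, since the share of the 100 genes with the highest mean was 62.5% in replicate 1 (Wilson 95% interval 62.3% to 62.7%), 63.6% in replicate 2 (63.5% to 63.8%) and 61.2% in replicate 3 (61.0% to 61.4%). The libraries have no molecular identifiers, so that intervals and limits cover counting error only. The totals are of 1 length class on genes and not the depth of the libraries.

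**Figure D1:**
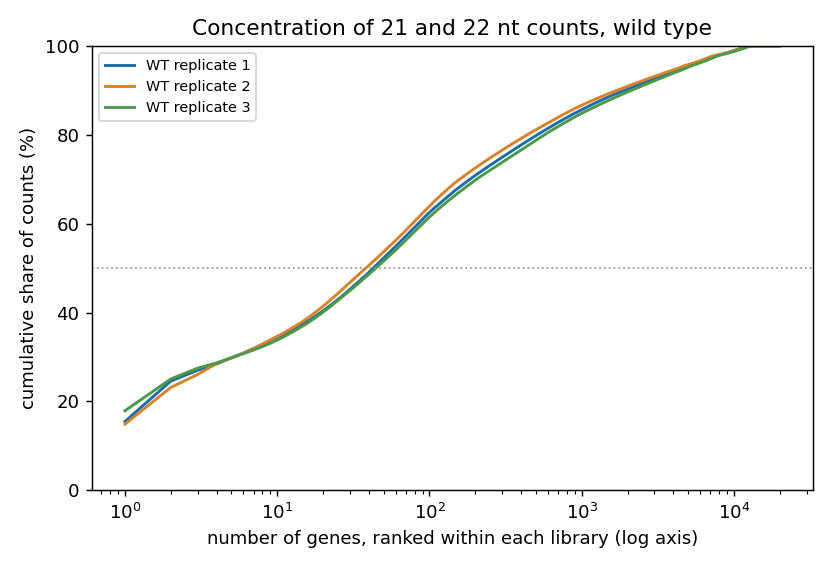
Cumulative share of the counts (%, vertical axis) against the number of genes ranked within each library (log axis), 1 line for each of the 3 wild-type libraries. The lines start at 14.9% to 17.9% for the highest gene and cross 50% (dotted line) at 39 to 45 genes.

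The highest gene in each wild-type library was AT4G14810, which encodes an uncharacterized protein and lies on the plus strand of chromosome 4 (8504145 to 8504509 in TAIR10.1, 365 bases). It had 31438, 34330 and 40681 counts. These were 15.5% (Wilson 95% interval 15.3% to 15.6%), 14.9% (14.7% to 15.02%) and 17.9% (17.7% to 18.04%) of the library totals, so that the share on this short gene was highest in replicate 3. On the opposite strand it overlaps *MIR780* (8504141 to 8504314), and both mature forms, miR780.1 and miR780.2, lie inside the gene. The table gives neither the strand nor the position of a read, so the part of the count that is the miRNA itself could not be separated. The cation/H+ exchanger gene *CHX18* (AT5G41610), a known target of miR780, ranked 20 with 966, 1582 and 1338 counts, a mean of 5831 CPM ± 1053 (SD, n = 3). It overlaps an annotated non-coding RNA gene, and which of its reads come from the *CHX18* mRNA was not tested.

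The second gene was AT3G06435, also an uncharacterized protein (chromosome 3, minus strand, 1968288 to 1970946), with 18484, 19041 and 16262 counts. Its share was lowest in replicate 3 and had a mean of 8.17% ± 0.975 (SD, n = 3). Only 30.8% of the 21-base words of this gene occur at a single place in TAIR10.1, so its reads could in part belong to other copies. The third was AT4G27930, which had no entry in the annotation used here and was the steadiest of the 20 highest genes, with 4981, 5710 and 5555 counts, or 2.46% ± 0.0168 of the library totals. Together the 3 genes held 26.7% of the mean CPM.

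AT2G01021 (rank 5, chromosome 2, 6571 to 6672) is 102 bases long and has no 21-base word that occurs once in the genome. It had 2883, 2320 and 2705 counts. Reads with more than 1 perfect match in TAIR10.1 thus entered the counts of this gene, with the aligner run in its unique mode. The gene overlaps no annotated structural RNA gene, and whether its sequence is structural RNA was not tested. In total 178 genes have neither a unique 21-base nor a unique 22-base word, and 95 of these had wild-type counts. Their share was 1.45% ± 0.223 (SD, n = 3), and 0.242% without AT2G01021.

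**Figure D2:**
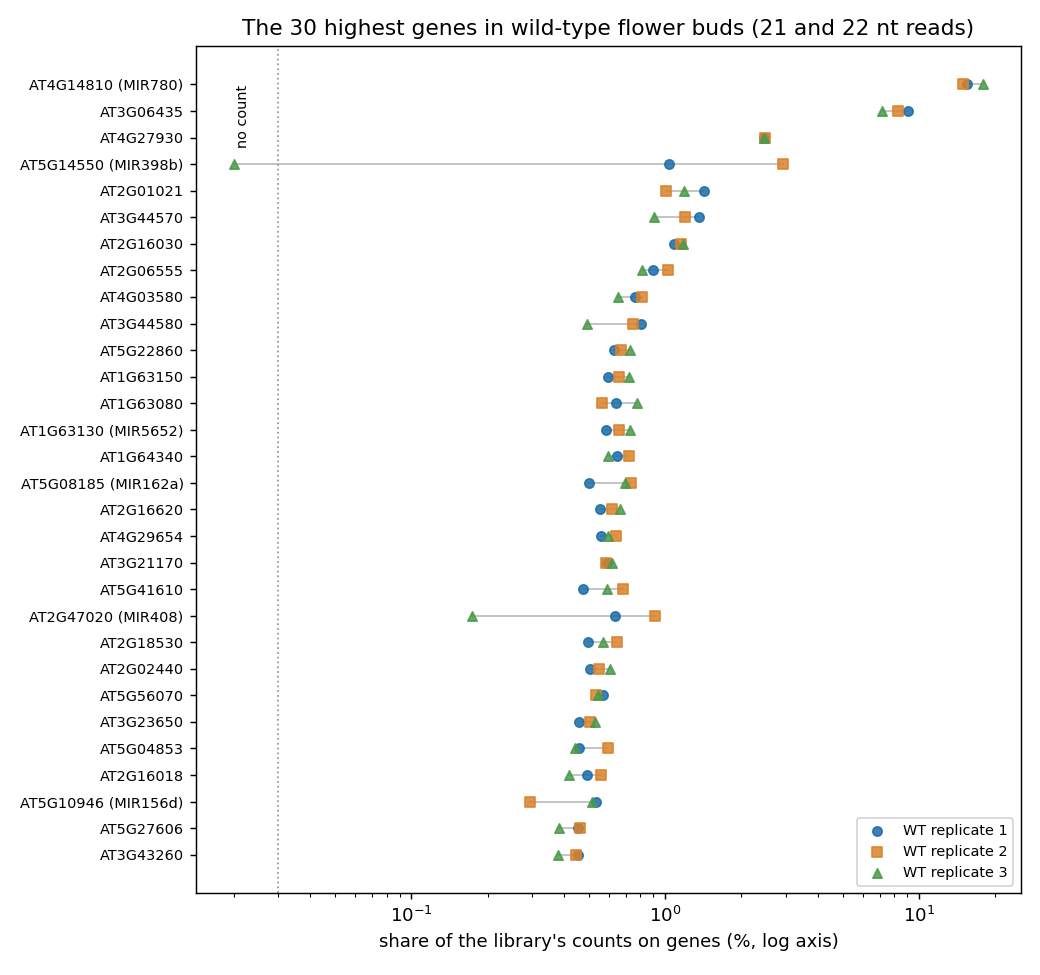
Share of each library's counts (%, log axis) for the 30 genes with the highest mean CPM, in order of rank, with 1 symbol for each wild-type library and a grey line from the lowest to the highest. The overlapping miRNA gene is in brackets, a library with no count is drawn left of the dotted line, and AT5G14550 and AT2G47020 stand out by their range.

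Genes that overlap an annotated miRNA gene on either strand were 84 of 27415 (0.306%) and held 20.3%, 22.0% and 21.4% of the counts, a mean of 21.2% ± 0.874 (SD, n = 3). Of these genes, 77 had a count (91.7%, against 67.7% of all genes), 34 had at least 100 CPM (40.5%, against 2.96%) and 8 were among the 100 highest. The 3 highest held 85.1% of the counts of the class. Without AT4G14810, an alternative chosen after seeing the data, the class held 5.14%. AT1G63130, the third of them, belongs to the pentatricopeptide repeat genes described further on. Where the overlap had to be on the same strand (56 genes) the class held 2.20%, and where the miRNA gene had to lie wholly inside the table gene (68 genes) it held 4.59%. Both of these narrower sets also leave out AT4G14810, because *MIR780* lies on the opposite strand and starts a few bases outside the gene.

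AT5G08185 (rank 16, 140 bases) is the *MIR162a* gene itself. It had 1024, 1694 and 1580 counts, a mean of 6442 CPM ± 1232 (SD, n = 3), with replicate 1 below the other libraries. Its mature forms occur at 2 sites in the genome. miR162 guides cleavage of the mRNA of *DCL1*, the dicer that makes miRNAs. *DCL1* (AT1G01040), which hosts *MIR838* in its transcript, had 69, 53 and 77 counts (303 CPM ± 63.1, SD, n = 3). AT5G10946 overlaps *MIR156d*, whose product guides cleavage of *SPL* mRNAs, and had 1090, 677 and 1170 counts, lowest in replicate 2. The annotated mature forms of *MIR156d* are 20 and 23 nt long and so outside the lengths counted here. AT5G39370 (overlapping *MIR3933*) and AT3G41762 (overlapping *MIR5642a*) had 2148 CPM ± 125 and 1844 CPM ± 61.7 (SD, n = 3), although the annotated mature forms of these miRNAs do not lie wholly inside the table genes.

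A pair of miRNA-overlapping genes varied widely between the wild-type libraries. AT5G14550, a gene of the Core-2/I-branching beta-1,6-N-acetylglucosaminyltransferase family (chromosome 5, minus strand, 4691006 to 4694055), had 2108 counts in replicate 1, 6734 in replicate 2 and 0 in replicate 3. Replicate 2 was thus at least 2213-fold higher than replicate 3 (29186 CPM against the limit of 13.2 CPM that a count of 0 allows). Both mature forms of *MIR398b* lie inside it on the opposite strand. Each of these sequences occurs at 2 sites in TAIR10.1, and the other site, *MIR398c* (chromosome 5, 4694694 to 4694808), overlaps no gene of the table. The count was 3 in 1 of the 5 *cer7* libraries (cer7-sail replicate 3) and between 1619 and 8782 in the remaining mutant libraries. Whether the placement of reads with 2 matches had a part in the count of 0 was not tested.

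AT2G47020, annotated as a peptide chain release factor (chromosome 2, minus strand, 19319685 to 19322507), overlaps *MIR408* on the opposite strand. It had 1285, 2113 and 394 counts, again highest in replicate 2 and lowest in replicate 3, and the highest CPM was 5.29 times the lowest. The annotated miR408 sequences occur at a single site in the genome, but the table does not show which reads were counted on the gene. miR398 and miR408 are known to rise when copper is scarce and to act on mRNAs of copper proteins. The mRNAs of 7 such proteins gave few reads in these buds: *CSD2*, a copper/zinc superoxide dismutase, had 1, 3 and 8 counts, *CSD1* had 1, 3 and 1, its chaperone *CCS* had 1, 0 and 4, and the list as a whole held 0.00415% ± 0.0021 of the counts (SD, n = 3).

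**Figure D3:**
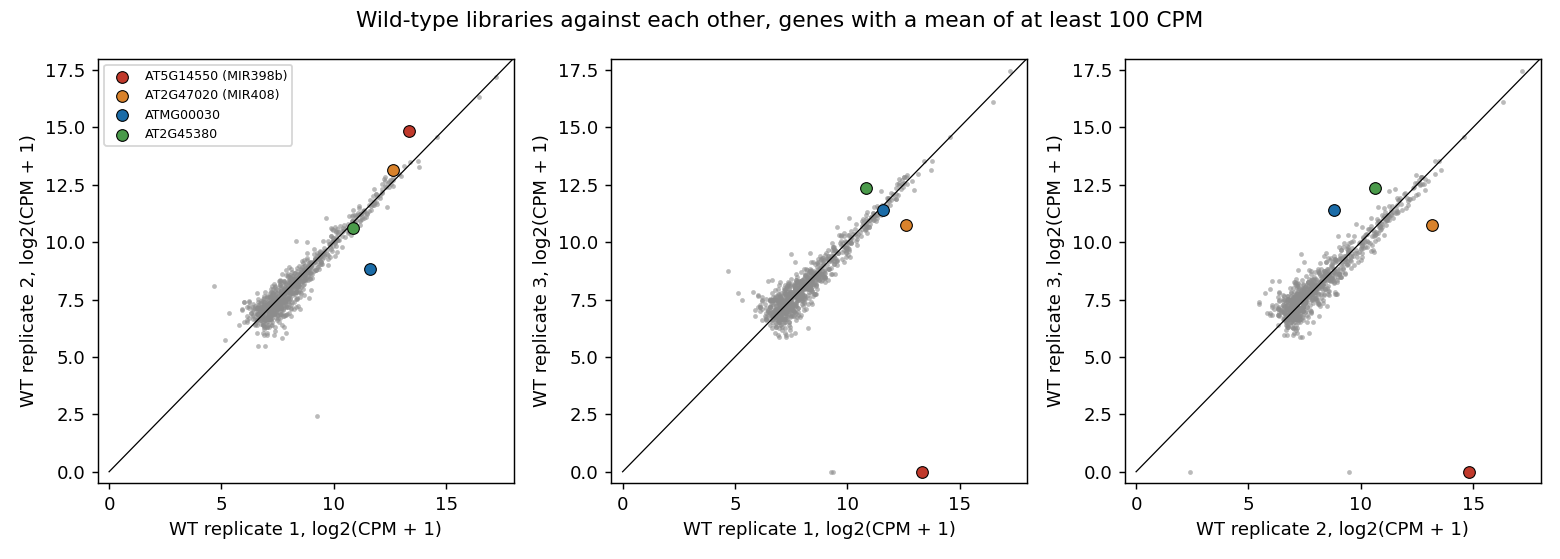
Each panel plots 1 wild-type library against another as log2(CPM + 1) for the 811 genes with a mean of at least 100 CPM, with the line of equal values. AT5G14550 lies on the axis at 0 in replicate 3, and AT2G47020, ATMG00030 and AT2G45380 lie off the line in at least 1 panel.

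Some of the highest genes lay in inverted repeats. AT3G44570, annotated as a retrotransposon ORF-1 protein (rank 6, chromosome 3, 16158405 to 16159835), had 2770, 2777 and 2055 counts. Its neighbour AT3G44580, an uncharacterized protein (rank 10, 16160338 to 16161837), had 1637, 1726 and 1116 counts. Replicate 3 was lowest for both. The genes are arms of an inverted repeat: 63.03% of AT3G44570 and 49.6% of AT3G44580 consist of words of 15 bases whose reverse complement lies in the gene or within 2000 bases of it. The longest perfect match between the arms is 62 bases (16159144 to 16159205 with 16160702 to 16160763), and 30 bases from its middle are printed for each arm as the plus strand reads.
AT3G44570, chr3:16159160-16159189: tggatgaggatgtatatcctaaacttgtga
AT3G44580, chr3:16160718-16160747: tcacaagtttaggatatacatcctcatcca
Each of these lines is the reverse complement of the other. AT5G22960 and AT4G21366, ranked 64 and 97, reached a foldback share of 80.7% and 94.2% with perfect stretches of 437 and 391 bases. AT5G22960, of the alpha/beta-hydrolase family, had 469, 396 and 669 counts, and AT4G21366, annotated as a protein kinase and overlapping a pseudogene, had 326, 308 and 342. In all, 4 of the 89 positioned genes among the 100 highest had a foldback share of at least 10% (4.49%), against 0.296% of all genes with a position. Genes annotated as transposable element related (78) held 1.68% ± 0.268 of the counts (SD, n = 3), of which 84.9% lay on their 3 highest members. After AT3G44570 these were AT2G16040, a transposase-like gene with 285, 401 and 253 counts, and AT2G06420, of an En/Spm-like transposon, with 275, 361 and 240. By CPM both were highest in replicate 2, whereas AT3G44570 was highest in replicate 1 (13629 CPM, against 12036 and 9035 CPM).

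The pentatricopeptide repeat (PPR) genes, a large family whose proteins bind organellar RNA, were split by position. A cluster on chromosome 1 includes known targets of miR161 and of tasiRNAs from *TAS2*, whose cleaved mRNAs are copied into phased siRNAs. The 23 PPR genes between AT1G62000 and AT1G64999 held 3.14% ± 0.176 of the counts (SD, n = 3), while the 465 PPR genes elsewhere held 0.321% ± 0.0109. In the cluster 13 of 23 genes had at least 100 CPM (56.5%) and 5 were among the 100 highest. Elsewhere 6 of 465 had at least 100 CPM (1.29%) and 0 were among the 100 highest. The share of all genes at this level was 2.96%. The leading PPR genes elsewhere were AT1G12775 with 105, 107 and 91 counts and AT2G02750, which overlaps a miRNA gene, with 88, 102 and 95.

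AT1G63150, AT1G63080 and AT1G63130, each carrying a note as a tasiRNA generating locus, ranked 12, 13 and 14. AT1G63150 had 1215, 1521 and 1646 counts, AT1G63080 had 1306, 1303 and 1757, and AT1G63130 had 1189, 1521 and 1653. Their means of 6602, 6599 and 6570 CPM differed by less than the SD of any of them (629, 1050 and 709, n = 3). AT1G62910 and AT1G62914 followed with 3884 CPM ± 454 and 3589 CPM ± 352. The cluster was not uniform: its median gene, AT1G63230, had 38, 40 and 32 counts, and 3 of its 23 genes had none. Members resemble each other, and 14.9% to 67.1% of the 21-base words of the 5 highest are unique, so that reads could be exchanged between them.

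**Figure D4:**
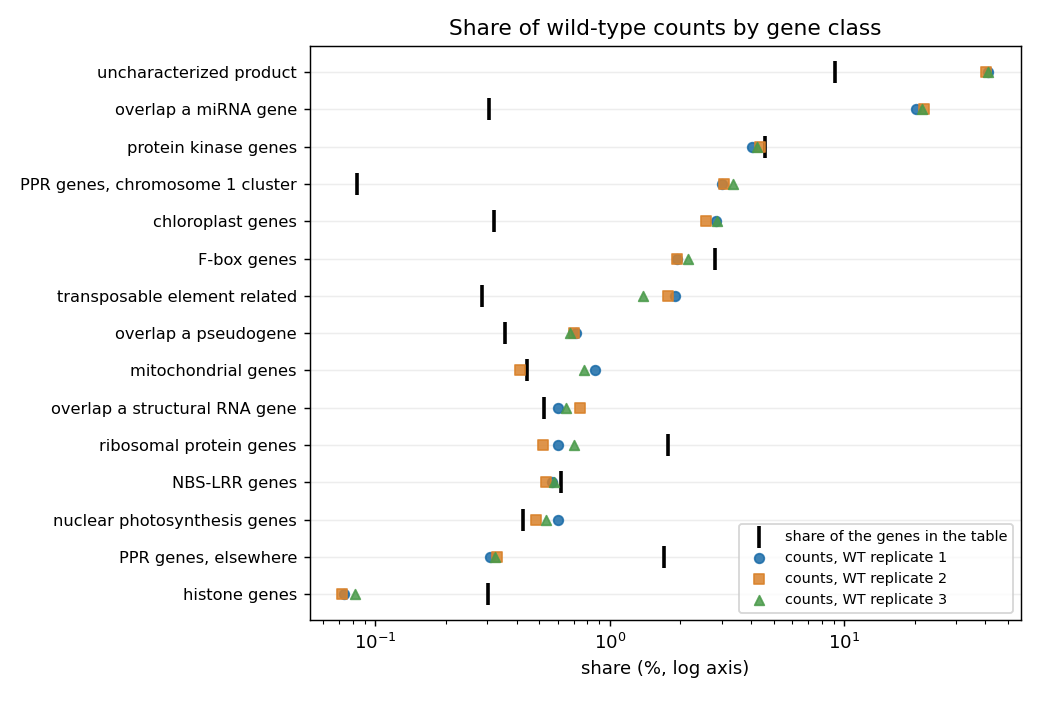
Share of the counts (%, log axis) on each gene class in the 3 wild-type libraries (coloured symbols), with the share of the 27415 genes that belong to the class (black tick). Classes may share genes. Genes overlapping a miRNA gene, the PPR cluster and chloroplast genes lie right of their tick, and PPR genes elsewhere, ribosomal protein genes and histone genes lie left of it.

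A large part of the counts lay on genes without an annotated function. Genes with an uncharacterized or hypothetical product were 9.10% of the table and held 40.7% ± 0.519 of the counts (SD, n = 3), of which 62.6% lay on AT4G14810, AT3G06435 and AT2G01021. They were 28 of the 100 highest genes. AT2G06555, ranked 8, had 1817, 2369 and 1844 counts, and AT4G03580, ranked 9, had 1552, 1876 and 1483. The 100 highest genes were also short: of the 89 with a position, 17 were under 500 bases (19.1%, against 3.81% of all genes with a position), and the median length was 1220 bases against 2108. Counts per gene were not divided by length in the ranking. Ranked per kilobase, which is possible only for the 89 with a position, 76 remained among the 100 highest, and AT4G14810, AT2G01021 and *MIR162a* came first.

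Named protein families were also represented among the highest genes. AT2G16030, a methyltransferase superfamily gene ranked 7, had 2201, 2666 and 2678 counts. It overlaps AT2G16018, which had 1003, 1296 and 954 counts, and how reads in the overlap were counted is not given in the sources used here. AT5G22860, a serine carboxypeptidase gene, had 1281, 1545 and 1661 counts, and AT1G64340, annotated as a serine/threonine kinase, had 1309, 1665 and 1360. Protein kinases as a class were close to their share of genes, with 4.22% ± 0.160 of the counts (SD, n = 3) on 4.58% of the genes, and 8 were among the 100 highest. AT2G16620 (6102 CPM ± 553), AT4G29654 (5986 CPM ± 388) and AT2G18530 (5715 CPM ± 728) led this class, and together they held 42.1% of its counts. F-box genes, which encode the substrate-binding part of ubiquitin ligases, held 2.01% ± 0.132 on 2.81% of the genes, led by AT3G21170 with 1200, 1353 and 1400 counts. AT2G30615 (1310 CPM ± 274) and AT4G10700 (989 CPM ± 84.7) followed far below it.

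Identifiers without a match in the annotation used here were 487 and held 4.51% ± 0.0996 of the counts (SD, n = 3). Of these, 39.8% had a count, against 67.7% of all genes, and 6 were among the 100 highest. After AT4G27930 came AT1G22067 (1918 CPM ± 281) and AT4G04953 (1877 CPM ± 51.6). Genes that overlap a pseudogene (98) held 0.698% ± 0.0210, led by AT4G10210 with 310, 376 and 315 counts, and varied little between libraries. Cytosolic and organellar ribosomal protein genes, which are highly transcribed, held 0.606% ± 0.0919 on 1.77% of the genes. None of these 485 genes was among the 100 highest, and the leading one, AT4G29410, had 55, 68 and 102 counts.

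Genes of the table overlap one another in 3265 pairs. If every read of the lower gene of each pair had also been counted in the higher one, 1.38% ± 0.0404 of the counts (SD, n = 3) would have been counted again, and 2 pairs had the same counts in every library.

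Genes of the organelles gave reads as well. The 88 chloroplast identifiers held 2.76% ± 0.160 of the counts (SD, n = 3), and all 88 had a count. ATCG00490 was the highest with 4154 CPM ± 281 (SD, n = 3), followed by ATCG00020 with 731, 765 and 831 counts and ATCG01300 with 586, 548 and 531 counts. These values varied little, with an SD of 5.14% to 12.1% of the mean. The 122 mitochondrial identifiers held 0.866%, 0.412% and 0.778%, so replicate 2 was lowest. ATMG00030, the only mitochondrial gene among the 100 highest, had 630, 104 and 612 counts, a range of 6.88 times in CPM. ATMG00160 followed with 96, 43 and 83 counts. Nuclear genes for photosystem proteins, light-harvesting proteins and the small subunit of RuBisCO (117) held 0.539% ± 0.0575, led by AT5G28450, a chlorophyll a/b binding protein gene with 198, 236 and 193 counts. Genes overlapping an annotated structural RNA gene (144) held 0.666% ± 0.0747, and none was among the 100 highest. The leading gene of this class, AT2G35750, had 163, 490 and 288 counts. Structural RNA sequence that is not annotated as a gene falls outside this class, so its reads on other table genes were not assessed. AT2G01021, ranked 5, lies outside the class, and the share of the class would be too low if its sequence were structural RNA, which was not tested.

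Known miRNA targets and related genes were above the average gene but below the highest ones. Of 129 genes in 17 lists (targets of conserved miRNAs and tasiRNAs, RNA silencing genes and floral organ identity genes), 113 had a count, 64 had at least 10 CPM and 18 had at least 100 CPM (13.95%). Over all genes, 67.7% had a count, 18.3% had at least 10 CPM and 2.96% had at least 100 CPM. The median of the lists was 9.28 CPM, against 2.89 CPM for all genes, and none of the 129 was among the 100 highest of 27415. Together they held 0.854% ± 0.0535 of the counts (SD, n = 3).

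The *HAM* genes, GRAS transcription factors of the shoot meristem that are targets of miR171, had the highest median of these lists (566 CPM). All 3 were above 100 CPM. *HAM1* had 199, 350 and 174 counts (1087 CPM ± 387), *HAM2* had 117, 103 and 154 (566 CPM ± 116), and *HAM3* had 52, 70 and 59 (273 CPM ± 26.5, SD, n = 3). The order *HAM1*, *HAM2*, *HAM3* held in each library, although *HAM1* and *HAM2* were close in replicate 3.

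The auxin receptor genes, targets of miR393, differed among themselves. *AFB3* had 112, 192 and 117 counts (633 CPM ± 174) and *AFB2* had 60, 92 and 75 (341 CPM ± 52.7), while *TIR1* had 14, 20 and 14 and *AFB1* had 2, 2 and 5. The order *AFB3*, *AFB2*, *TIR1*, *AFB1* held in each library. Among the silencing genes, *AGO2* (538 CPM ± 149), the miRNA effector *AGO1* (292 CPM ± 16.9) and *DCL1* were the only members above 100 CPM of 20 in the list. *AGO1* with 61, 70 and 62 counts was the steadiest of the 3. The RNA-dependent RNA polymerase gene *RDR6* had 1, 5 and 1 counts.

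*ARF4* (238 CPM ± 43.4), a target of tasiRNAs from *TAS3*, was above *ARF2* (99.4 CPM ± 32.4) and *ARF3* (42.03 CPM ± 6.83). The flowering regulator *AP2*, a target of miR172, had 46, 51 and 49 counts, and the other 5 genes of its list had at most 11 in a library. The TCP genes *TCP3* (178 CPM ± 9.37), *TCP4* (149 CPM ± 37.6) and *TCP2* (101.1 CPM ± 38.4), targets of miR319, were the leading members of their list. *ARF6* (116 CPM ± 16.8), a target of miR167, was the only gene of its list above 100 CPM.

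The remaining target lists were lower, and many of their genes were below the limit that a count of 0 allows. The 5 HD-ZIP III genes, leaf polarity regulators and targets of miR165 and miR166, had at most 17 counts in a library, and *PHB* and *PHV* were the highest with 49.0 CPM ± 17.1 and 46.8 CPM ± 32.6. No *SPL* gene exceeded 8 counts in a library, no NF-YA gene exceeded 3, and no GRF gene exceeded 10. The *NAC* genes had 0 to 5 counts. The anthocyanin regulators *PAP1*, *PAP2* and *MYB113*, targets of tasiRNAs from *TAS4*, had no count in any wild-type library. *PHO2*, a target of miR399, had 9, 15 and 12 counts. The 12 floral organ identity genes, which are transcribed in buds but are mostly not miRNA targets, held 0.0187% ± 0.00341 of the counts, with *STK* (47.7 CPM ± 18.5) and *AP1* (36.4 CPM ± 8.87) leading. Histone genes (83) held 0.0758% ± 0.00522, and their highest member, AT4G13570, had 19, 14 and 13 counts.

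Disease resistance genes of the NBS-LRR type held 0.560% ± 0.0239 of the counts (SD, n = 3) on 0.620% of the genes. AT1G12290, which hosts *MIR472*, was the highest with 187, 204 and 181 counts (867 CPM ± 64.0), and AT5G43740 followed with 135, 121 and 200. AT1G58602 had 99, 108 and 136. miR472 is known to act on mRNAs of this class. In the list of 18 genes of the CC-NBS-LRR type, 4 were above 100 CPM (22.2%, against 2.96% of all genes) and 15 had a count (83.3%, against 67.7%).

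The libraries were close for abundant genes and less so for rare ones. Across the 27415 genes, Pearson's r of log2(CPM + 1) was 0.702 for replicates 1 and 2, 0.708 for replicates 1 and 3 and 0.710 for replicates 2 and 3, with Spearman's rho of 0.570, 0.587 and 0.583. Across the 811 genes with at least 100 CPM, r was 0.947, 0.869 and 0.879, and rho was 0.893, 0.859 and 0.867. AT5G14550, with no count in replicate 3, is among these genes and lowers r for the pairs with that replicate. These values are across genes, which are not independent replicates, and all pairs share the library preparation and the gene table. Of the 100 highest genes of each library, 90 were common to the 3 libraries and 110 were in at least 1. Among the 100 genes with the highest mean, the median SD was 10.2% of the mean, 88 genes had an SD under 20% and 96 stayed within a factor of 2 between the lowest and the highest library.

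The spread exceeded counting noise, and its ratio to counting noise was larger for higher genes, whose counting noise is smaller. How much spread remained at each level beyond counting noise was not estimated. Genes with a mean of 10 to 30 counts had a median SD of 27.4% of the mean, against 25.4% from counting alone. For 27 genes with a mean of at least 1000 counts it was 11.1%, against 2.63%. A median of SDs from 3 libraries tends to lie below the true SD, so these pairs of values understate the excess over counting. The chi-square per degree of freedom over genes with at least 20 counts in a pair was 4.85 (replicates 1 and 2), 6.26 (1 and 3) and 10.4 (2 and 3), so no pair agreed within sampling noise, as a library deposited again would. AT5G14550, with 2108, 6734 and 0 counts, raises each of these values, most of all that of replicates 2 and 3. The order of the pairs without this gene was not computed. The common biological coefficient of variation estimated by edgeR over 1433 genes was 0.231.

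The 4 genes that did not stay within a factor of 2 were AT5G14550, ATMG00030, AT2G47020 and AT2G45380. AT2G45380, annotated as a myeloid leukemia factor, had 371, 362 and 1193 counts, so that it was highest in the library in which AT5G14550 and AT2G47020 were lowest. By CPM it was highest in replicate 3 of each mutant line too. AT2G47020 was highest in replicate 2 of cer7-gabi, riprC, riprT and rst1-3, but in replicate 1 of rst1-2. Whether libraries with the same replicate number shared a growth date or chamber was not tested. Among 258 genes with at least 100 counts in a wild-type library, 3 had at most 3 counts in another. These were AT5G14550, AT1G73650 (133, 165 and 0 counts) and AT5G45720 (125, 1 and 0 counts). They were chosen after their values were seen, as was AT2G45380.

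The wild-type share of genes overlapping miRNA genes was then set beside that in the mutants. It was 7.07% to 11.3% in *cer7* (mean 9.40% ± 1.71, SD, n = 5), 13.7% to 17.7% in *rst1* (15.5% ± 1.38, n = 6) and 13.7% to 19.3% in *ripr* (16.5% ± 1.94, n = 6). Each wild-type library, at 20.3% or more, was above each mutant library. The exact permutation test over libraries (two-sided) gave p = 0.0357 for *cer7*, 0.0238 for *rst1* and 0.0238 for *ripr*, the smallest that these group sizes allow, and the Benjamini-Hochberg adjusted p over the 3 exact tests was 0.0357 for each. The class was set by the annotation but chosen with its wild-type share known, and its leading gene is the first in the wild-type ranking, so these p-values are not independent evidence. The mutant shares were lower by 11.8, 5.71 and 4.67 percentage points. This is a share of a total that also holds the reads of other genes. With the library sizes of edgeR's TMM normalization, the class had 222422 CPM ± 17428 in the wild type (SD, n = 3), 122697 CPM ± 21631 in *cer7*, 163985 CPM ± 17478 in *rst1* and 174325 CPM ± 20522 in *ripr*, with the same exact p-values.

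The difference rested largely on AT4G14810. This gene alone held 4.50% to 7.83% of the counts in *cer7*, 9.27% to 13.6% in *rst1* and 8.72% to 13.97% in *ripr*, below each wild-type library. Without it the class held 3.55% to 7.08% in the wild type, 2.56% to 3.46% in *cer7*, 3.76% to 5.01% in *rst1* and 3.81% to 6.61% in *ripr*. The exact permutation p was 0.0357, 0.381 and 0.810 (0.107, 0.571 and 0.810 adjusted over the 3 exact tests), and 0.0357 is the smallest that the *cer7* group sizes allow. Leaving this gene out was chosen after seeing the data, so these p-values are a description and not independent evidence. The *cer7* libraries still did not overlap with the wild type, with means that differed by −2.02 percentage points, whereas the *rst1* and *ripr* libraries did. The wild-type range was then wider than that of any mutant, and replicate 2, which was highest for AT5G14550 and AT2G47020, was also the highest in this sum.

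**Figure D5:**
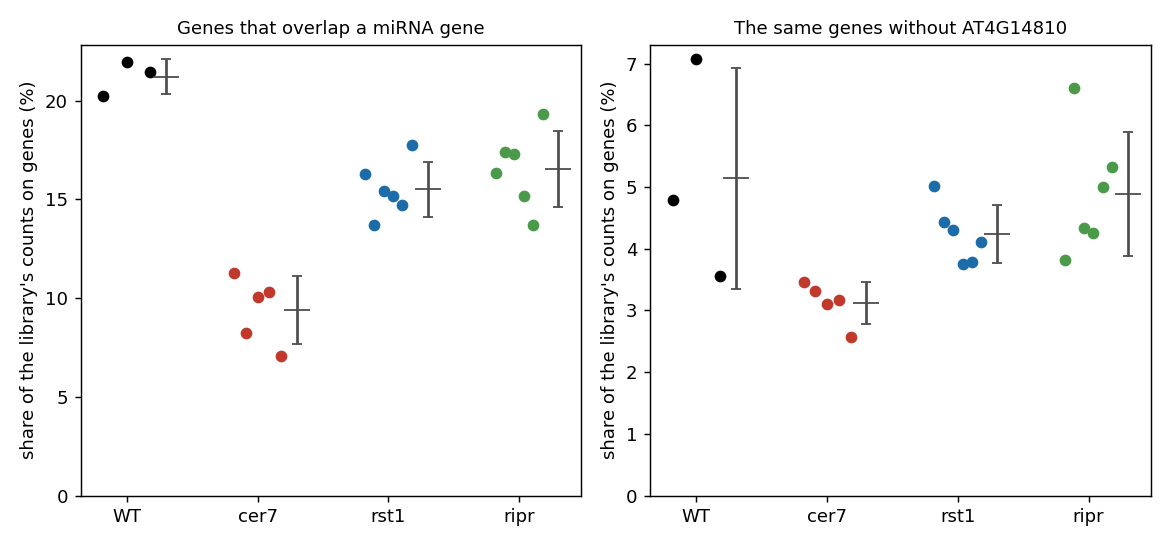
Share of each library's counts (%) on the 84 genes that overlap a miRNA gene (left) and on the same genes without AT4G14810 (right), 1 point for each library, with the mean and SD of the group beside the points. On the left the 3 wild-type libraries lie above all mutant libraries, and on the right the wild-type libraries span the range of *rst1* and *ripr*.

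The 100 highest wild-type genes were mostly high in the mutants too. Of these genes, 76 were also among the 100 highest by mean CPM in *cer7*, 84 in *rst1* and 85 in *ripr*. Their summed share was 61.2% to 63.6% in the wild type and 30.8% to 36.6%, 48.8% to 53.2% and 46.6% to 51.4% in *cer7*, *rst1* and *ripr*. They were chosen for high wild-type values, so a lower mutant value is favoured by the choice and these shares were not tested.

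The mutants were each tested against the wild type over 2916 genes with edgeR's quasi-likelihood test, and a gene was called with a Benjamini-Hochberg adjusted p below 0.01 and a log2 fold change past 1. All 100 genes were tested. The same wild-type libraries served in the 3 comparisons. In *cer7*, 4 of the 100 genes were called lower and 0 higher, while 2.19% of all tested genes were called lower and 17.4% higher. In *rst1*, 0 were called lower and 1 higher, against 0.652% and 9.95% of all tested genes. In *ripr*, 3 were called lower and 0 higher, against 0.72% and 9.91%. Where no gene was called, the count at an unadjusted p under 0.05 was 0 higher in *cer7*, 51 lower in *rst1* and 4 higher in *ripr*. DESeq2 called 0, 1 and 0 higher and 7, 0 and 3 lower. The genes were chosen on the values of the same wild-type libraries, which favours lower values in the mutants, so these counts and the medians that follow are a description. The median log2 fold change of the 100 genes was −0.54 in *cer7*, −0.40 in *rst1* and −0.39 in *ripr*, against 0.07, 0.09 and 0.07 for all tested genes. The *cer7* values depend on the scaling: with library size only, the median log2 fold change was −0.83 for the 100 genes and −0.23 for all tested genes, and 14.2% of all tested genes were called higher and 8.98% lower.

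Few of the highest genes passed the test. In *cer7*, *HAK5* (AT4G13420), a high-affinity potassium transporter gene, had 469, 451 and 535 counts in the wild type and 148 to 219 CPM in the 5 *cer7* libraries against 1955 to 2352 CPM in the wild type, so the groups did not overlap. Its log2 fold change was −3.20 (SE 0.157, adjusted p = 2.2e-14 with edgeR). For AT4G14810 the *cer7* log2 fold change was −1.04 (SE 0.177), close to the threshold on the fold. For it, as for the other genes named here, the wild-type values that put it among the 100 highest also enter the test, and its p is not independent of that choice. AT3G44780, a cysteine proteinase gene, and AT4G10603, of a pollen coat protein family, were also just past it at −1.01 and −1.01 (adjusted p = 0.000617 and 0.00134). The number called lower in *cer7* was 27 with library size only, 2 without a filter on low counts, 15 without wild-type replicate 3, 2 without wild-type replicate 2 and 2 without cer7-sail replicate 1.

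In *ripr* the arms of the inverted repeat were far lower. AT3G44570 had 16 to 220 counts and AT3G44580 5 to 119 in the 6 *ripr* libraries, whereas the wild-type libraries had at least 2055 and 1116. The log2 fold changes were −5.65 (SE 0.513, adjusted p = 5.53e-09) and −5.97 (SE 0.5502, adjusted p = 7.12e-09). Both lines of *ripr* were low. In *rst1* the same genes had 431 to 3206 and 204 to 1713 counts and were not called, and the lowest of these values, 431 and 204, were both of rst1-2 replicate 1. The third gene lower in *ripr* was AT4G10603 (log2 fold change −1.03, adjusted p = 0.00129). The gene called higher in *rst1* was AT1G62914 of the PPR cluster, with 4831 to 9845 CPM against 3207 to 3902 CPM in the wild type (log2 fold change 1.11, SE 0.239, adjusted p = 0.00136). It was not called without wild-type replicate 2 or without wild-type replicate 3. As in *cer7*, the wild-type values that ranked these genes also enter the test, so these p-values are not independent of that choice.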

How the data were processed

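The deposited table holds, as the authors made it, counts of 21 and 22 nt reads on 27415 TAIR10 gene identifiers. Per the submitters' notes and methods, reads were demultiplexed with bcl2fastq 2.17.1.14, trimmed with cutadapt 1.18 and aligned to TAIR10 with ShortStack, with no mismatch and in unique mode. The counting tool and its handling of strand and overlapping genes are not given in the sources used here, so sense and antisense reads cannot be told apart. The kit gave no molecular identifiers.

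Counts were divided by the column total (CPM), with a pseudocount of 1 before log2. Identifiers were matched by name to TAIR10.1 (RefSeq): 26718 matched, 487 nuclear ones did not, and 88 chloroplast and 122 mitochondrial ones carry no name in the reference. Classes were set by overlap with annotated RNA genes or by words in the product name. A 21-base word is unique if it occurs once in TAIR10.1 on both strands.

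Groups were taken from the labels, and alleles of a gene were pooled. The test was the quasi-likelihood test of edgeR 4.0.16 (R 4.3.3), with TMM normalization and filterByExpr (minimum count 10, total 15), over 20 libraries in 4 groups. The alternatives were RLE or library size only, no filter, DESeq2 1.42.0, only the wild type and the mutant in the fit, a replicate block and leaving out each library. The edgeR script was tested on simulated data. Python 3.11.15 and scipy 1.17.1 were used for the permutation tests and intervals.

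Named were the 20 highest genes, up to 3 leading members of each list or class, the 3 of the 100 highest genes with the widest range, and up to 5 called genes per mutant; others were chosen after their values were seen. The genes, classes and lists were chosen with earlier results of these data known.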

Additional observations from a re-analysis of the deposited data

Results flagged for a closer look

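In each of the 3 mutant groups, the libraries were compared for the CPM of 12 genes and for 4 summed or single-gene shares, which makes 48 comparisons, and 3 of these had a library farther from the rest than Dixon's 95% limit allows. Such a limit flags about 1 in 20 independent comparisons by chance, and whether the flagged values exceed chance was not tested. The comparisons are not independent, since the shares include some of these genes and the arms of an inverted repeat are neighbours. AT3G44570 was at 1615 CPM in rst1-2 replicate 1, with the next *rst1* library at 9135 CPM. Its partner in the inverted repeat, AT3G44580, was at 765 CPM in the same library, with the next at 4930 CPM. AT2G47020, which overlaps *MIR408*, was at 6167 CPM in cer7-sail replicate 1, with the next *cer7* library at 3005 CPM. The wild-type group, with 3 libraries, is too small for this rule.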

How the results depend on the processing

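With genes ranked by their mean, the 10 highest held 33.9% ± 0.998 of the wild-type counts and the 100 highest 62.5% ± 1.21 (SD, n = 3), and each alternative run moved these by less than the SD. Without each wild-type replicate in turn, the 10 highest genes held 33.7% to 34.4%, the 100 highest 61.9% to 63.1%, and 41 to 45 genes held 50%. The share on genes overlapping a miRNA gene was 2.20% with overlap on the same strand only, 4.59% with the miRNA gene wholly inside, and 5.14% without AT4G14810, an alternative chosen after seeing the data. The narrower overlaps also leave out AT4G14810.

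The difference of this share from the wild type, in percentage points, was between -12.3 and -11.2 in *cer7*, between -6.19 and -5.33 in *rst1* and between -5.23 and -4.11 in *ripr* when each library was left out. With 2 wild-type libraries the adjusted p of the exact test was 0.0952, and with 4 *cer7* libraries 0.0571; the smaller groups cannot reach lower values. Without AT4G14810 the differences were -2.02, -0.908 and -0.251.

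Of the 100 highest genes, the number called lower in *cer7* was 27 with library size only, 2 without a filter on low counts and 7 with DESeq2, and between 2 and 15 when each library was left out (15 without wild-type replicate 3). The number called higher in *rst1* was between 0 and 1 when each library was left out. Over all tested genes, 64 were called lower in *cer7*, 262 with library size only, 35 without the filter and 109 with DESeq2. With only the wild type and the mutant in the fit, 331 were called higher in *cer7* (507 otherwise) and 6 lower in *rst1* (19 otherwise). The cause of these changes was not tested. With a replicate block the numbers called lower were 4 in *cer7* and 3 in *ripr* and the number called higher in *rst1* was 1, as without it. The correlations of same-numbered libraries across genes ran from -0.0285 (rst1-2 replicate 3) to 0.11, and all others than the lowest were positive. Counting noise lowers such correlations, so the strength of a pairing cannot be read from them. Single genes could follow the replicate number, as AT2G45380 had its highest CPM in replicate 3 of each line.

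In the wild type, 3 libraries limit each SD, and the median gene lies below the limit that a count of 0 allows. The counts hold 1 length class and no strand.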
